A study of Drosophila melanogaster with 4 samples.

Results

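The broad X regions were stretches of the X chromosome held as 1 enriched H3K9acS10P region of 5000 bp or more in the series-level list. They were selected on their width in the series-level list, where a row counted when it lay on X and its midpoint fell between positions 1000001 and 20422827, which leaves out 1 Mb at the telomere-facing end and 2 Mb at the centromere-facing end. The rule took 251 of the 2055 X regions inside these limits, of 2325 on the whole of X and of 15374 in the list. Another 22 X regions of that width lay outside the limits. Regions of the same width on 2L, 3L and 3R, inside the same distances from the arm ends, served for contrast and numbered 182, 195 and 254. The samples were 2 ChIP and 2 input samples of whole wild type Oregon-R embryos aged 14 to 16 h, and the 1 antibody lot used was Ab12181 lot838296. No group was treated or mutant, the sex of the embryos is not given in the labels, and signal from all embryonic tissues was pooled in each sample. Coordinates are those of FlyBase r5, 1-based. No gene or sequence is given, because no annotation or genome of that build was used here.

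The antibody recognises histone H3 that carries an acetyl group on lysine 9 and a phosphate on serine 10 of the same tail. Acetylation of this lysine is known from the promoters and 5′ parts of active genes. Phosphorylation of the neighbouring serine marks condensed mitotic chromosomes and, in interphase nuclei of Drosophila, is laid down by the kinase JIL-1. JIL-1 is known to be enriched on the X of males, where the dosage compensation complex raises transcription over the bodies of active genes. A mark spread over whole genes or over groups of neighbouring genes is read by a caller as a broad region, or as a row of regions close together.

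The 2 replicate lists differed in size. The series-level list is the authors' list for the series as a whole, and how the replicates entered it is not stated. Its regions carry 1 score each, with no statement of its scale in the file headers or labels. Replicate 1 held 4619 regions, 865 of them on X, and replicate 2 held 10280, of which 1534 were on X. Depth is unknown for both libraries, since a region comes with no count of reads. The part of depth in the differences between the replicates was not tested. Whether the 2 ChIP samples came from different collections of embryos is not stated, and their spread may be technical. With 2 replicates no exact two-sided test can give a p under 0.5, and members were chosen on the list they describe, so every comparison below is a description without a p-value. Regions on an arm are not replicates of embryos.

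Broad X regions were more frequent and wider than regions of the same class on the autosomal arms. They made up 12.2% of X regions inside the limits, against 8.17% on 2L, 7.13% on 3L and 7.45% on 3R. The background over the 4 arms was 8.46%. Their density was 12.9 per Mb on X, against 9.09 on 2L, 9.05 on 3L and 10.2 on 3R. Together they covered 2.20 Mb, or 11.3% of the X interior, whereas the autosomal values lay between 6.70 and 7.42%. All regions of any width covered 29.9% of the X interior, which lies within the autosomal range of 26.8 to 32.2%. Thus the total extent of the mark on X was like that on the autosomal arms, but 37.9% of it lay in broad regions, against 22.8 to 25.9%. The width rule fixed the class itself, and these shares describe the list that was used to choose it.

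The replicate lists, each taken alone, also held their highest share of regions of 5000 bp or more on X. In replicate 1, 44 of 785 X regions reached that width, or 5.61% (95% exact binomial interval 4.10 to 7.45%), against 1.97% on 2L, 2.09% on 3L and 2.41% on 3R. In replicate 2, 211 of 1372 X regions did, or 15.4% (13.5 to 17.4%), against 8.32, 8.02 and 8.53%. The background over the 4 arms was 3.04% in replicate 1 and 9.71% in replicate 2. The ratio of X to the mean of the autosomal arms was 2.60 in replicate 1 and 1.85 in replicate 2, or 2.23 ± 0.525 (SD, n = 2). Among replicate regions at or over the median score of each list, an alternative chosen after seeing the data, the ratio was 1.61 in replicate 1 and 1.13 in replicate 2. Of the X regions of this width, 43 of 44 in replicate 1 and 201 of 211 in replicate 2 overlapped a broad X region. Those of the autosomal arms overlapped a broad region nearly as often, in 51 of 52 and 420 of 463 cases. The series-level list may rest on the same reads as the replicate lists, so these values are not independent of the rule. The intervals cover counting error only and are too narrow, because neighbouring regions are related.

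The width of the broad X regions ran from 5000 to 34579 bp, with a median of 7218 bp and quartiles of 6122.5 and 9350 bp. The medians on 2L, 3L and 3R were 6743.5, 6542 and 6436 bp. The arms diverged most at the wide end. X held 54 regions of 10 kb or more, against 27, 29 and 32, and 20 of 15 kb or more, against 6, 3 and 1. All 3 autosomal arms together held 1 region of 20 kb or more, and X held 10. Regions of 15 kb or more therefore made up 7.97% of broad X regions and 1.58% of the 631 autosomal ones. At the width limit the class has no natural edge. The 3 regions just inside it were X 5646125 to 5651124, X 15397346 to 15402346 and X 1405115 to 1410169, of 5000, 5001 and 5055 bp, with scores of 0.934, 0.613 and 1.19. The 3 just outside were X 8010832 to 8015828, X 17312619 to 17317607 and X 7820732 to 7825708, of 4997, 4989 and 4977 bp, with scores of 0.807, 0.686 and 0.688.

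**Figure D1:**
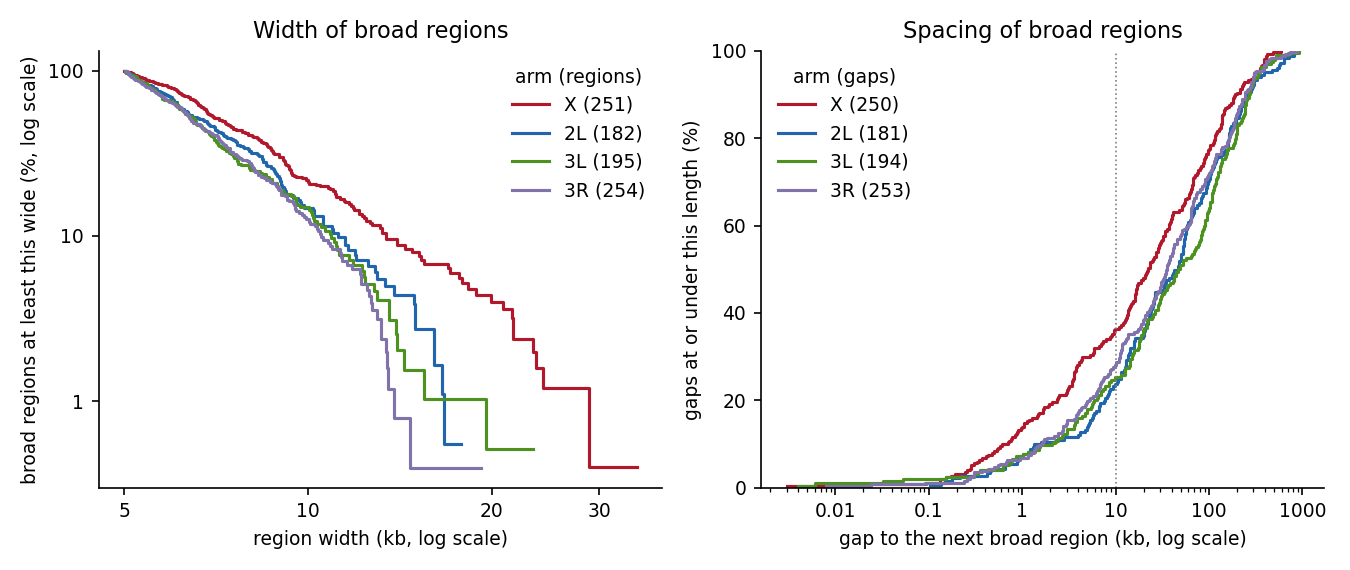
Left, the percentage of broad regions of each arm at least as wide as the value on the x axis (kb, both axes on log scales). Right, the percentage of gaps between neighbouring broad regions at or under the length on the x axis (kb, log scale), with a dotted line at 10 kb. The X line lies to the right of the others for width, reaching 34.6 kb, and has 36.4% of its gaps at 10 kb or less, against 23.8 to 28.1% on the other arms.

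The 10 widest regions lay along much of X and spanned 20.9 to 34.6 kb. The widest, X 19521267 to 19555845, had a score of 1.08 and corresponded to 9 regions of replicate 1 and 2 of replicate 2. Those of replicate 1 covered 68.3% of its bases and those of replicate 2 covered 96.0%. X 1758042 to 1786927, of 28886 bp, was 4 pieces in replicate 1, covering 78.2%, and a single region of 28541 bp in replicate 2. X 1349376 to 1378243, of 28868 bp, was 5 pieces in replicate 1, covering 67.8%, and again a single region in replicate 2, covering 99.3%. Both replicates thus marked these stretches, and replicate 1 held each in several pieces. The widest piece of replicate 1 in X 1758042 to 1786927 measured 11010 bp, which was also the widest X region of that list inside the limits.

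X 6707915 to 6732232, of 24318 bp, was 5 pieces in replicate 1 and 2 in replicate 2. X 19367732 to 19391366, of 23635 bp, was 5 pieces and 1 piece, and X 20261745 to 20285131, of 23387 bp, was 3 and 2. The latter had the lowest coverage of the 10 in replicate 1, at 39.1%, and the highest in replicate 2, at 100.0%. The remaining 4 were X 10735625 to 10757347, X 17977393 to 17999077, X 11002320 to 11023919 and X 9035936 to 9056831. Over all 10, replicate 1 gave 47 pieces, from 3 to 9 each, and replicate 2 gave 15, with 5 regions whole and 5 in 2 pieces. Coverage ranged from 39.1 to 81.8% in replicate 1 and from 91.5 to 100.0% in replicate 2, and the ranges did not overlap.

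**Figure D2:**
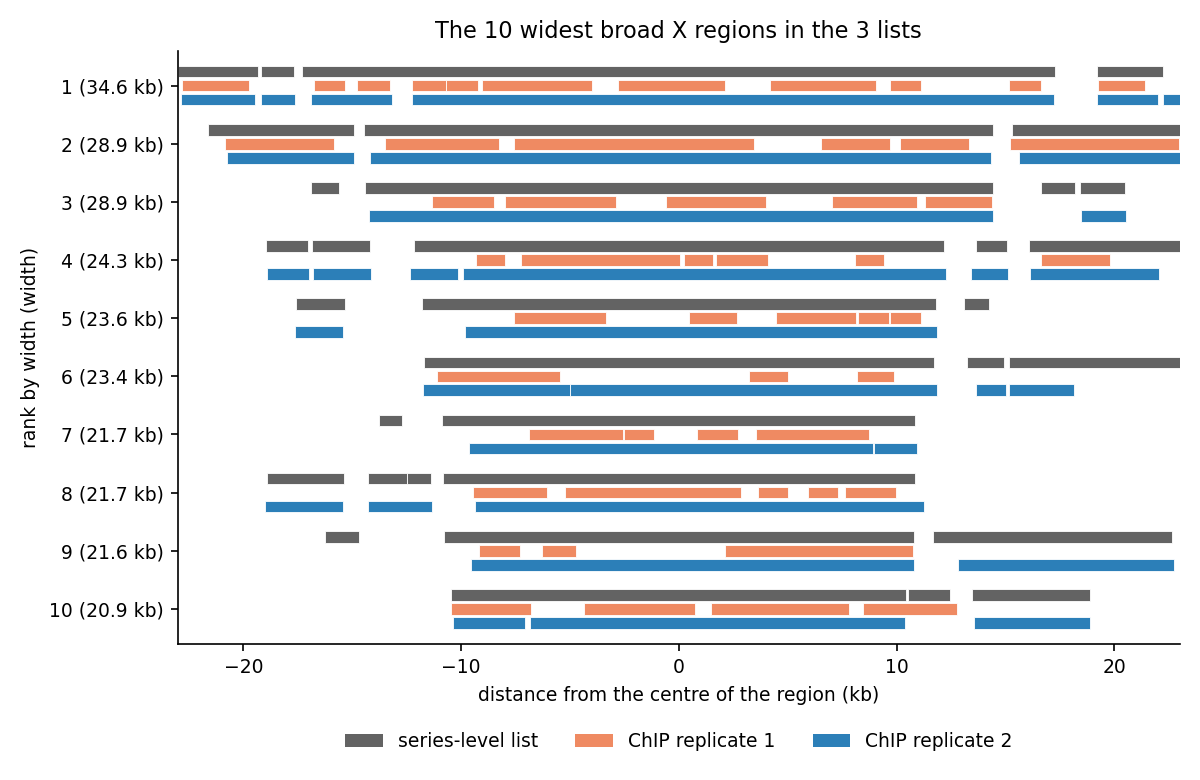
The 10 widest broad X regions, ranked by width, drawn by distance from the centre of each region (kb), with bars for the regions of the series-level list, of ChIP replicate 1 and of ChIP replicate 2. Neighbouring regions within 5 kb are drawn too, and bars are cut off at the edge of the plot. Replicate 1 shows 3 to 9 bars inside each grey bar and replicate 2 shows 1 or 2.

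The widest regions on the autosomal arms included some split as on X and some with more pieces in replicate 2 than in replicate 1. 3L 5743177 to 5766596, of 23420 bp, was 2 pieces in replicate 1 and 4 in replicate 2. 3L 15954523 to 15974093, of 19571 bp, was 1 piece in replicate 1, covering 16.9%, and 4 in replicate 2, covering 76.9%. 3R 19869070 to 19888300, of 19231 bp, was 4 pieces in replicate 1 and 5 in replicate 2. On 2L the widest, 2L 11989105 to 12006957, of 17853 bp, was 3 pieces in replicate 1 and whole in replicate 2, and 2L 6470466 to 6487196 and 2L 1404406 to 1421007 were 4 and 3 pieces in replicate 1 and likewise whole in replicate 2. The others named by the same rule were 3L 2769137 to 2784652, with 2 pieces in replicate 2, and 3R 12070876 to 12085562 and 3R 25492660 to 25506520, each whole in replicate 2. Among these 9, replicate 2 held 5 whole and divided 4, against 5 and 5 of the 10 widest on X. The 9 measured 13861 to 23420 bp and the 10 on X measured 20.9 to 34.6 kb, so the sets are not matched for width. At 15 kb or more, replicate 2 split 40.0% of 20 X regions and 70.0% of 10 autosomal ones.

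Most broad X regions overlapped a region of each replicate list. Replicate 1 overlapped 219 of the 251, whereas it overlapped 29.7% of all X regions inside the limits. Replicate 2 overlapped all 251, against 62.1% of all X regions. A wide region meets an overlap of 1 bp more readily than a narrow one, so these backgrounds are not matched for width. Of the 631 equally wide autosomal regions, replicate 1 overlapped 534 and replicate 2 overlapped 630. The series-level list may rest on the same reads as the replicate lists, so the overlap is not an independent finding. Replicate 1 covered 50.5% of the bases of broad X regions and replicate 2 covered 94.0%, or 72.2% ± 30.7 (SD, n = 2). The autosomal values were 44.5 to 45.7% in replicate 1 and 90.3 to 90.6% in replicate 2. The difference between X and the mean of the autosomal arms came to 5.53 percentage points for replicate 1 and 3.57 for replicate 2, or 4.55 ± 1.39 (SD, n = 2). It had the same sign in both replicates. Both values came from the same selected regions, so their SD does not measure the error of the difference. At the same score, replicate 1 covered less on X than on the autosomal arms, as described below. With widths under 10 kb alone, a choice made after seeing the data, it was 2.05 and 3.21 percentage points. The sign was not the same in every class of width, since between 6 and 8 kb replicate 1 covered 44.3% of bases on X and 45.3% on the autosomal arms.

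In replicate 1, 32 broad X regions had no piece, or 12.7% (95% exact binomial interval 8.89 to 17.5%). Their shares on the autosomal arms were 14.8% on 2L, 14.9% on 3L and 16.1% on 3R, all inside the interval for X. The intervals given here cover counting error only and are too narrow, because neighbouring regions are related. They do not test a difference between arms. The regions without a piece measured 5001 to 11920 bp, and their scores ran from 0.504 to 0.890, so all lay under the X median of 0.901. The widest were X 9253941 to 9265860, of 11920 bp, X 10267647 to 10276915, of 9269 bp, X 16519322 to 16528273, of 8952 bp, X 18764988 to 18773673, of 8686 bp, and X 3056830 to 3065397, of 8568 bp. Replicate 2 covered the first 2 of these wholly and the others to 85.2, 99.5 and 99.1%. Over the 32, the median coverage in replicate 2 was 97.6%, against 96.8% for the 121 regions in 1 piece and 96.5% for the 98 in several. Absence from replicate 1 on X thus went with low score but not with a lower median coverage in replicate 2. On the autosomal arms the same medians were 92.4% without a piece, 94.1% in 1 piece and 95.2% in several. Among the 13 broad X regions scoring under 0.6, 10 had no piece in replicate 1, and replicate 2 covered 80.6% of the bases of the 13. The series-level score may rest on the reads of replicate 1, so score and absence may not be independent. In replicate 2 itself, 0 of 251 regions lacked a piece, which allows a share of up to 1.20% when 3 counts are taken as the limit for a count of 0, or 1.46% as the upper end of the exact binomial interval. Of the 631 autosomal regions, 1 lacked a piece.

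Splitting differed between the replicates, and so did the contrast with the autosomal arms. In replicate 1, 98 broad X regions, or 39.0%, were in 2 or more pieces, against 30.2 to 31.9% on the autosomal arms and 5.26% of all X regions. In replicate 2, 68 were, or 27.1%, against 30.3 to 35.9% and 4.53%. Most of all X regions are narrower and have less room for 2 pieces, so those shares are not matched for width. Mean pieces per region were 1.52 on X in replicate 1, against 1.23 on 2L, 1.22 on 3L and 1.24 on 3R. In replicate 2 they were 1.31 on X, against 1.40, 1.41 and 1.34. The difference between X and the mean of the autosomal arms was 0.293 in replicate 1 and -0.0667 in replicate 2, or 0.113 ± 0.255 pieces (SD, n = 2), a difference within the spread between replicates. At least 4 pieces were seen in 15 broad X regions in replicate 1 and 1 in replicate 2, and in 6 autosomal ones in each replicate.

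**Figure D3:**
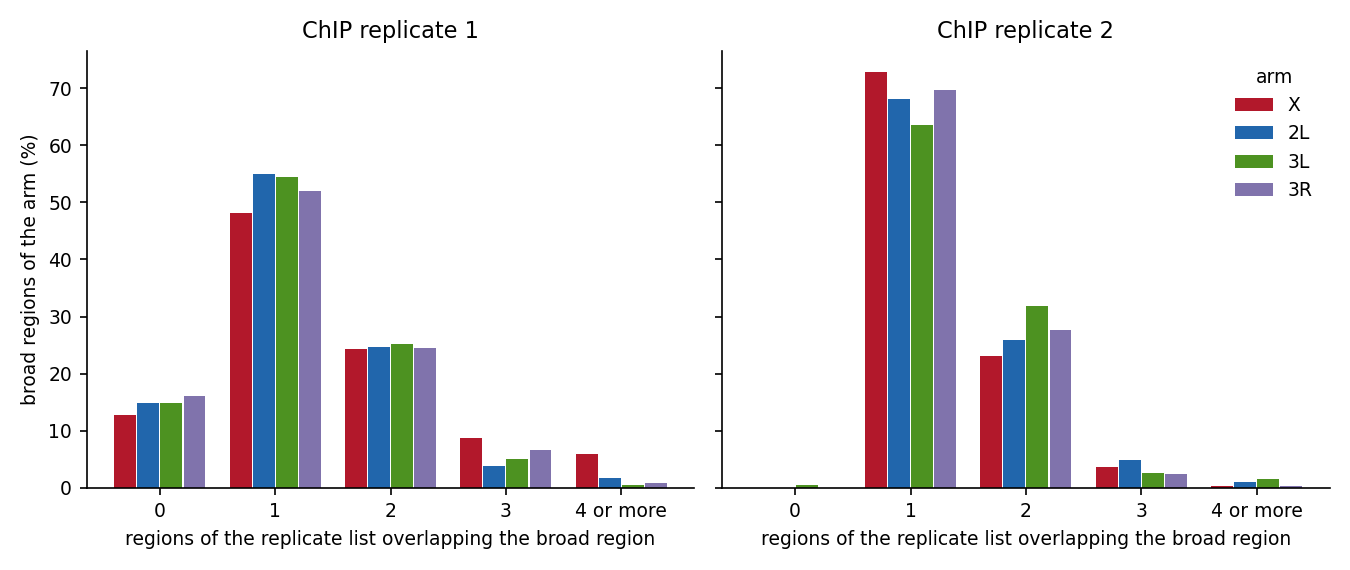
Percentage of the broad regions of each arm that were overlapped by 0, 1, 2, 3 or 4 or more regions of ChIP replicate 1 (left) and ChIP replicate 2 (right). In replicate 1, X has the lowest bar at 1 piece (48.2%) and the highest bars at 3 and at 4 or more. In replicate 2 it has the highest bar at 1 piece (72.9%).

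The excess of pieces on X in replicate 1 came with the widest regions. Between 5 and 6 kb, mean pieces in replicate 1 were 0.907 on X and 0.959 over the autosomal regions. Between 6 and 8 kb they were 1.13 on both, and between 8 and 10 kb 1.42 and 1.47. From 10 to 15 kb they were 2.15 on X, for 34 regions, and 1.78 on the autosomal arms, for 78. At 15 kb or more they were 4.25 on X, for 20 regions, and 3.00 for the 10 autosomal ones. This last class has no upper limit and is not matched for width. It held 10 X regions of 20 kb or more and 1 autosomal one. With widths under 10 kb alone, the difference between X and the autosomal mean was 0.0202 pieces in replicate 1 and -0.0243 in replicate 2. Per 10 kb of broad region, replicate 1 had 1.74 pieces on X and 1.61 to 1.70 on the autosomal arms.

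In replicate 2, pieces on X rose less with width than those on the autosomal arms. Pieces on X averaged 1.22 between 5 and 6 kb, 1.50 between 8 and 10 kb, 1.38 between 10 and 15 kb and 1.40 at 15 kb or more. On the autosomal arms they rose from 1.22 to 1.65 between 10 and 15 kb and 2.50 at 15 kb or more, the last over 10 regions only. Per 10 kb, replicate 2 had 1.50 pieces on X and 1.83 to 1.91 on the autosomal arms. By class of width, from the narrowest to the widest, replicate 2 split 22.2, 21.1, 39.6, 26.5 and 40.0% of the X regions. The autosomal shares were 22.7, 27.9, 47.9, 50.0 and 70.0%. The regions in the most pieces in replicate 2 were X 11500222 to 11513454, in 4 pieces, and 9 in 3 pieces. The first of these along X were X 1963677 to 1977113, X 2581433 to 2588250, X 5510647 to 5519437 and X 8971797 to 8981123. In replicate 1 the most divided after the widest region were X 6154585 to 6174543, in 6 pieces, and 6 regions in 5 pieces, which include X 6178305 to 6196183.

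**Figure D4:**
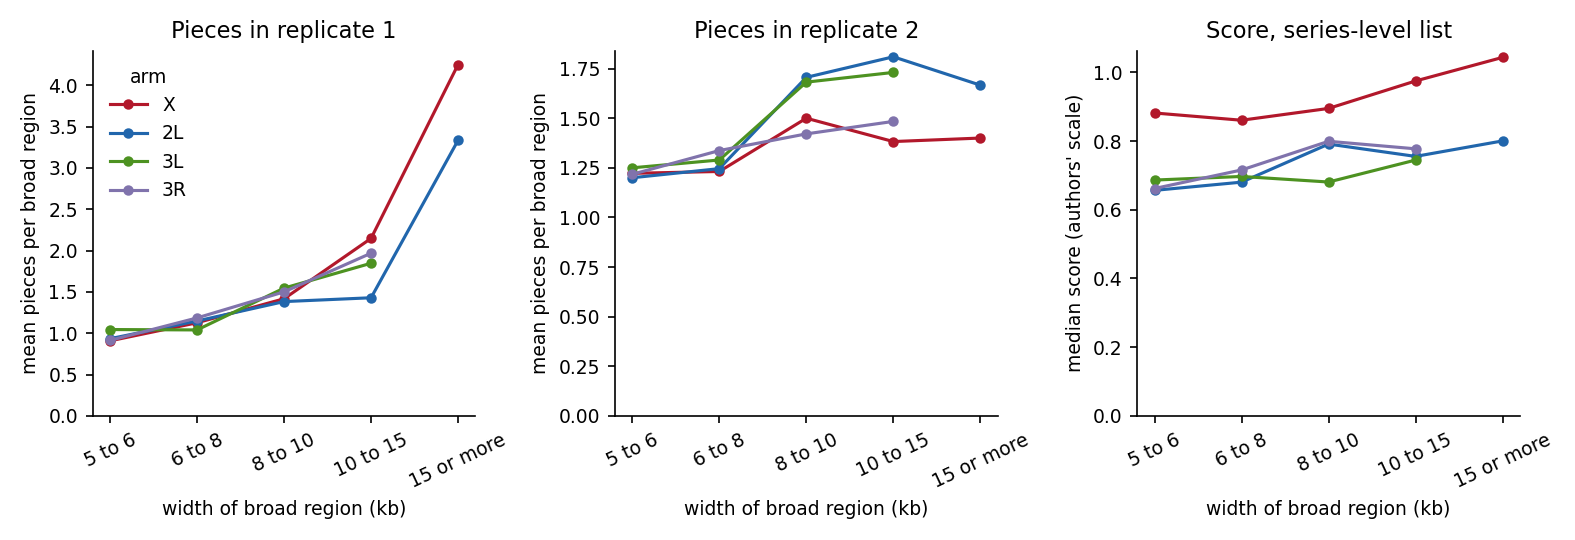
Mean number of pieces per broad region in ChIP replicate 1 (left) and ChIP replicate 2 (middle) and median score in the series-level list (right), by class of width in kb. Points with fewer than 5 regions are left out, lines join the classes of an arm, and no error is drawn because regions are not replicates. X lies with the other arms in the left plot up to 10 kb and above them in every class of the right plot.

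The breaks between pieces were short. Inside broad X regions the 163 breaks of replicate 1 had a median of 887 bp and quartiles of 363.5 and 1882 bp. The 79 breaks of replicate 2 had a median of 208 bp. On the autosomal arms the medians were 756.5 to 831.5 bp in replicate 1 and 219 to 292.5 bp in replicate 2. Merging of replicate regions 500 bp or less apart lowered mean pieces per broad X region from 1.52 to 1.32 in replicate 1 and from 1.31 to 1.08 in replicate 2. Most of the breaks in replicate 2 were thus 500 bp or less.

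The outer ends of broad X regions agreed closely with replicate 2 and less with replicate 1. Both ends lay within 500 bp of the outermost ends in replicate 2 for 181 regions, or 72.1%, and in replicate 1 for 28, or 11.2%. The autosomal shares were 61.0 to 65.7% and 6.04 to 12.2%. Replicate 1 began a median of 846 bp inside the left end and stopped 1107 bp inside the right end, against 44 and 30 bp in replicate 2. Across the width of a region, replicate 1 covered 58.8% of the bases at the centre and 21.4% in the outermost 5% at either end. Replicate 2 covered 97.1% and 71.6%. The fall toward the ends was 37.5 percentage points on X in replicate 1, within the autosomal range of 36.7 to 39.4, and 25.4 in replicate 2, where the autosomal arms had 26.5 to 29.5.

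**Figure D5:**
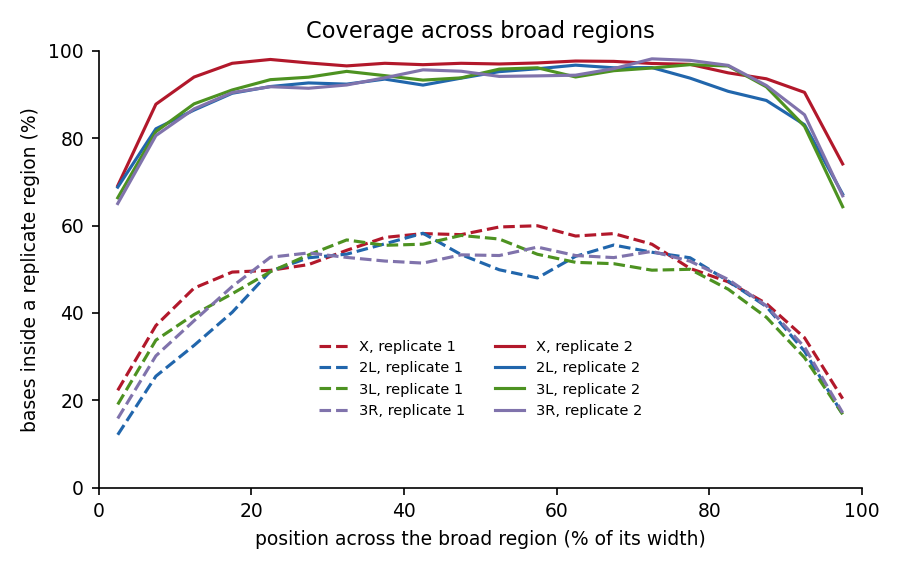
Percentage of bases inside a region of ChIP replicate 1 (dashed) or ChIP replicate 2 (solid) at each position across the broad regions of an arm, with every region scaled to the same length and divided into 20 bins. Both replicates cover the centre more than the ends, and the X line of replicate 2 reaches 97.1% in the centre.

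Scores within the series-level list were higher for broad regions on X than for equally wide regions elsewhere. The median score of broad X regions was 0.901, with quartiles of 0.778 and 1.07, against 0.720 on 2L, 0.694 on 3L and 0.727 on 3R. Thus the lower quartile on X lay above the median of each autosomal arm, although the ranges overlapped widely, from 0.504 to 1.57 on X and from 0.413 to 1.61 on the others. Narrower X regions also scored higher, with a median of 0.535 against 0.451 to 0.456. The step from narrower to broad regions was 0.367 on X and 0.238 to 0.274 on the autosomal arms. In every class of width the X median was the highest of the arms with at least 5 regions, from 0.882 at 5 to 6 kb to 1.04 at 15 kb or more. Scores of 1 or more belonged to 92 broad X regions, or 36.7%, and to 83 autosomal ones, or 13.2%.

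In the replicate lists the score contrast among wide regions was less uniform. In replicate 2 the median score of regions of 5000 bp or more was 1.15 on X, against 0.950, 0.929 and 0.964. In replicate 1 it was 1.10 on X and 0.944 and 0.948 on 2L and 3L, but 1.11 on 3R, over 23 regions. Scores are compared within a list only.

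The 5 highest-scoring broad X regions ranged in width from 5330 to 28868 bp. X 18271689 to 18280135, of 8447 bp, scored 1.57, and X 9445071 to 9451227, of 6157 bp, also scored 1.57. Next came the third widest region, X 1349376 to 1378243, with 1.50. X 19070832 to 19076161, of 5330 bp, scored 1.48, and X 6178305 to 6196183, of 17879 bp, scored 1.44. All 5 had pieces in both replicates, and each was a single region in replicate 2. Over the 251 regions, width and score had a Spearman rho of 0.24, given as a description across regions that share their libraries.

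The 5 lowest scores ran from 0.504 to 0.540, and none of these regions had a piece in replicate 1. They were X 9453110 to 9461223, X 7123282 to 7128402, X 15406450 to 15411721, X 5935521 to 5943001 and X 1613221 to 1618731. Replicate 2 covered them to 68.5, 51.3, 85.7, 92.6 and 85.9%. The lowest-scoring, X 9453110 to 9461223, lay 1882 bp from the second-highest, X 9445071 to 9451227, so strong and weak regions could be immediate neighbours.

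Score and coverage in replicate 1 went together on X, as they did on the autosomal arms. Both may rest on the same reads. With the regions divided by score into 4 sets of 62 or 63, replicate 1 covered 23.8% of bases in the lowest set, 42.3 and 57.9% in the middle sets, and 68.4% in the highest. Replicate 2 covered 89.8, 93.7, 94.7 and 96.4%. Across the 251 regions the Spearman rho of score with coverage was 0.68 in replicate 1 and 0.24 in replicate 2. On 2L, 3L and 3R it was 0.62, 0.62 and 0.72 in replicate 1 and 0.42, 0.29 and 0.34 in replicate 2. In 4 sets of the autosomal regions made the same way, coverage in replicate 1 rose from 19.7% in the lowest to 64.7% in the highest. At the same score, broad X regions had less coverage in replicate 1 than autosomal ones. Between scores of 0.6 and 0.8 the values were 28.0% for 63 X regions and 43.3% for 231 autosomal ones, and between 0.8 and 1 they were 50.8% for 83 and 59.2% for 147. In replicate 2 the same classes gave 92.5 and 91.4%, and 93.7 and 93.8%. The series-level score therefore did not stand for the same coverage in replicate 1 on X and on the autosomal arms.

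Broad regions were present along the whole X interior, with dense and sparse stretches. The 19 full windows of 1 Mb held from 4 to 22 of them, with a mean of 12.8 ± 5.05 (SD over windows). The densest were the first 2 windows from the telomere-facing limit, 1000001 to 2000000 with 21 and 2000001 to 3000000 with 22, which together held 17.1% of all broad X regions. The next window, 3000001 to 4000000, held 5. The sparsest were 14000001 to 15000000, with 4, and 3000001 to 4000000. By covered bases, 1000001 to 2000000 led with 247 kb, followed by 2000001 to 3000000 with 182 kb and 19000001 to 20000000 with 179 kb. At least 10 broad regions were found in 14 of 19 X windows, against 9 of 20 on 2L, 9 of 21 on 3L and 12 of 24 on 3R. No window on any of these arms was without one, and single windows on 3R reached 24, above the X maximum.

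Gaps between neighbouring broad X regions ranged from 3 bp to 585 kb, with a median of 22.3 kb and quartiles of 3.56 and 89.3 kb. The medians on 2L, 3L and 3R were 46.3, 47.7 and 35.4 kb. A higher density alone shortens gaps, so the median was also set against the mean, of which it was 0.328 on X and 0.401 to 0.464 elsewhere. Gaps of 10 kb or less made up 36.4% on X (95% exact binomial interval 30.4 to 42.7%), against 23.8, 25.3 and 28.1%. This interval covers counting error only and is too narrow, because neighbouring gaps are related. Gaps of 1 kb or less numbered 34 on X and 13, 14 and 17 on the other arms.

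The 5 shortest gaps on X measured 3, 21, 93, 132 and 133 bp. They followed the regions that end at positions 2521278, 17742045, 2601894, 1977113 and 13719628. Replicate 2 held 1 region across the gap of 21 bp, and replicate 1 held 1 across the gap of 132 bp. Over all 250 gaps, 1 was bridged in replicate 1 and 2 in replicate 2, all of them among the 20 gaps of 500 bp or less. With these 3 exceptions, no replicate region joined neighbouring broad X regions.

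The longest gaps ran from X 14137723 to 14722710 (585 kb), from 11923486 to 12413162 (490 kb), from 2633675 to 3056830 (423 kb), from 4020707 to 4429859 (409 kb) and from 17088779 to 17492922 (404 kb). None of these was empty. They held 26 to 43 narrower regions each, which covered 8.11 to 20.2% of their bases. Over the 159 X gaps longer than 10 kb, the median share covered by narrower regions was 26.8%. The 29.9% covered in the X interior as a whole is not a like value, because it includes broad regions, which no gap can hold. Replicate 1 covered 0.397 to 3.47% of them and replicate 2 4.53 to 13.7%. The longest gaps on 2L, 3L and 3R were 853, 918 and 871 kb.

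Most broad X regions stood in chains, defined as runs of broad regions with gaps of 10 kb or less. Chains of 2 or more held 148 of the 251, or 59.0%, against 41.8% on 2L, 43.6% on 3L and 48.4% on 3R. Chains of 3 or more held 31.1%, against 12.1, 16.9 and 17.7%. A higher density alone also puts more broad regions into chains. The part of density in these shares was not tested. X had 10 chains of 4 or 5 broad regions, and the other arms had 3, 3 and 4. The median span of a chain on X was 23.3 kb, against 20.0 to 20.5 kb.

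The chain from X 1750880 to 1824604 joined 5 broad regions over 73.7 kb, and 95.8% of that span lay inside them. From left to right they measured 6688, 28886, 8964, 12117 and 13977 bp, with gaps of 474, 844, 1198 and 577 bp. Their scores lay between 0.969 and 1.37, and replicate 2 held each as 1 region while replicate 1 held 10 pieces in all. The chain with the longest span, X 6116884 to 6196183, reached 79.3 kb with 4 broad regions, of 9332, 12641, 19959 and 17879 bp, and 75.4% of it was covered by them. It corresponded to 13 pieces in replicate 1 and 5 in replicate 2. A further chain of 5, X 2581433 to 2633675, spanned 52.2 kb and was followed by the third longest gap on X, so that dense and sparse stretches lay side by side.

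Immediate surroundings of broad regions were alike on all arms. In the 10 kb to either side, series-level regions of any width covered 51.2% of bases on X and 48.0 to 51.0% on the other arms, against 29.9% for the X interior. Another region lay within 1 kb of 175 broad X regions, or 69.7%, and of 71.7 to 75.9% of the autosomal ones. The X values for marked bases next to a broad region thus lay close to the autosomal ones. Broad neighbours were more frequent on X, where broad regions were also denser.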

How the data were processed

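The 3 deposited lists give enriched regions with first base, last base and 1 score per region. Their build is FlyBase r5, per the file headers, and the submitters' processing notes name Bowtie 0.12.7. Whether and how replicates were combined, which caller and threshold were used and what scale the score has: none of this is stated in the headers or labels. Scores are the authors' values as deposited; each score was compared only within a list; region ends were used as deposited. The input samples had no list here. Depth is unknown.

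Widths were last minus first base plus 1. A piece was a replicate region sharing at least 1 bp with a broad region. The tools were pandas 2.3.3, NumPy 2.4.6, SciPy 1.17.1 and, for plots, Matplotlib 3.10.9, under Python 3.11.15. Piece counting was tested on simulated data and recovered the known pieces and bases of every simulated region. All simulated pieces lay inside their region, so pieces that cross an end or span neighbouring regions were not tested. The members and comparisons were chosen with earlier results of these data known. Regions were named by rule: the 10 widest, the 5 highest and 5 lowest scores, the 5 most divided in each replicate, up to 5 absent from replicate 1, the 5 shortest and 5 longest gaps, 3 at either side of the width limit, and the 3 widest on each contrast arm. The chains described in full were picked after their values were seen. 2R was not used here.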

Additional observations from a re-analysis of the deposited data

How the results depend on the processing

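Of 75 values recomputed with both replicates kept, 58 moved by less than their tolerance. The tolerance was the SD between replicates, a 95% binomial interval, or 1.5 times for densities. Several tolerances were wide beside the value they judged, so this count does not measure stability. The SD was 0.255 for a difference in pieces of 0.113, and 30.7 percentage points for a coverage of 72.2%. The range for the density ratio of 1.37 also took in equal densities. The difference in pieces between X and the autosomal mean, 0.113 over both replicates, was -0.0667 without replicate 1 and 0.293 without replicate 2, and -0.00207 for widths under 10 kb, a range added after seeing the data. Leaving out 1 of 2 replicates always moves a mean by less than their SD, so those values are given as ranges only. Without replicate 1 and without replicate 2, mean pieces on X ranged from 1.31 to 1.52, coverage from 50.5 to 94.0%, its excess over the autosomal arms from 3.57 to 5.53 percentage points, the share without a piece from 0 to 12.7% and the ratio of wide regions from 1.85 to 2.60. A width minimum of 10000 bp gave 2.78 regions per Mb on X, a density ratio of 2.10, a median gap of 145 kb, 24.1% with a close neighbour instead of 59.0%, a score difference of 0.251 instead of 0.188, 2.16 pieces instead of 1.42 and a coverage difference of 7.04 percentage points. The median gap was 13.3 kb at a minimum of 4000 bp, 34.7 kb at 6000 bp and 14.9 kb with regions 500 bp or less apart merged, and 66.9% had a close neighbour at 4000 bp. Pieces per X region were 1.70 with series-level regions merged, 1.20 with replicate regions merged and 1.22 for widths under 10 kb, where the coverage difference was 2.63 percentage points. The density ratio fell to 1.19 at 4000 bp and 1.14 after merging, from 1.37. For the higher-scoring replicate regions alone, from the median of each list upward and also added later, the ratio of wide regions was 1.37, with 1.61 in replicate 1 and 1.13 in replicate 2. The cause of these shifts was not tested. The ratio of wide regions was not computed at 10000 bp, where replicate 1 had no autosomal region, nor by series-level score, which does not touch the replicate lists. No paired analysis was possible because only the ChIP samples have a list. Unknown depth limits every contrast between replicates.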
